A study of Mus musculus with 6 samples.

Results

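The genes of the MHC class II antigen presentation pathway were examined in mouse Th9 cells, CD4 T helper cells known for secreting interleukin 9. The set was chosen by symbol and holds 10 of the 21233 genes in the deposited tables: the chains H2-Aa, H2-Ab1 and H2-Eb1, the invariant chain Cd74, the peptide loading chains H2-DMa, H2-DMb1, H2-DMb2, H2-Oa and H2-Ob, and the transactivator Ciita. RNA-seq libraries came from 3 control samples and 3 samples treated with sorafenib, a kinase inhibitor that acts on RAF and on growth factor receptors, and both groups are labelled only as Th9 cell. The sources used here name no strain, age, dose or duration of treatment. The replicates are numbered, but no label calls them separate cultures or animals, so the spread behind each p-value is that of these libraries and could be technical.

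MHC class II molecules are pairs of an α and a β chain that show peptides from the endosomal pathway to CD4 T cells. In the mouse the I-A molecule is built from H2-Aa and H2-Ab1, and the I-E molecule from H2-Ea and H2-Eb1. Cd74 chaperones new pairs to the endosome, the H2-DM dimer exchanges the remnant of Cd74 for antigenic peptide, and the H2-O dimer inhibits H2-DM. Ciita encodes a coactivator that does not bind DNA itself but is recruited to the promoters of these genes by the factors RFX, CREB and NF-Y, which sit on a module of X and Y boxes. B cells, dendritic cells and macrophages are the classic class II cells, and mouse T cells are known for low class II transcription.

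The promoter module is shown first because members that share it are compared below. RefSeq promoter entries (build GRCm38.p6, from 250 bases before to 50 bases after each annotated start) were matched for 7 of the 10 members, and H2-Ab1, Cd74 and Ciita were not analysed here. Both strands were searched for GCAAC, the core of the X1 box, and for ATTGG, the core of the Y box (CCAAT on the other strand). Both cores in order on 1 strand, with starts 25 to 45 bases apart, were found in 332 of 32851 promoters (1.01%). GCAAC, with or without ATTGG, was found in 35.2%, and ATTGG, with or without GCAAC, in 37.4%. The pair was present in 4 of the 8 promoters of the members, those of H2-Aa, H2-Eb1, H2-Oa and H2-Ob, with the starts 30 to 33 bases apart and ATTGG starting 43 to 59 bases before the annotated start. The 70-base windows below are aligned on ATTGG and lie at chr17:34287852-34287921 (H2-Aa, minus strand), chr17:34305758-34305827 (H2-Eb1), chr17:34092286-34092355 (H2-Oa), chr17:34238798-34238867 (H2-Ob), chr17:34145109-34145178 (H2-DMb2), chr17:34153080-34153149 (H2-DMb1) and chr17:34325525-34325594 (H2-Eb2, a class II β chain gene outside the set), all but the first on the plus strand. Capitals mark GCAAC and ATTGG.
H2-Aa: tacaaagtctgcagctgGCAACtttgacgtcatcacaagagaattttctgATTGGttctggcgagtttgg
H2-Eb1: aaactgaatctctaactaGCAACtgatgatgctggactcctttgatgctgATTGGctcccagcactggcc
H2-Eb2: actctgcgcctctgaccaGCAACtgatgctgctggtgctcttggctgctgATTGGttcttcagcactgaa
H2-Oa: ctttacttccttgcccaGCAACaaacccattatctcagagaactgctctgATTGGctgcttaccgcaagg
H2-Ob: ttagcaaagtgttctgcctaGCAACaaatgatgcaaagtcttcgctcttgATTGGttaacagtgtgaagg
H2-DMb1: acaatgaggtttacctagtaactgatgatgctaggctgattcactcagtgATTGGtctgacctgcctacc
H2-DMb2: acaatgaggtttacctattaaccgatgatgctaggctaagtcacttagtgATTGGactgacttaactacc
The H2-DMb1 and H2-DMb2 windows held ATTGG without GCAAC in these letters, and they were identical at 61 of 70 positions. H2-DMa had 2 promoter entries, and neither held the pair. These matches describe letters only and are not evidence of binding.

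Of the 10 genes, 7 were higher with sorafenib and 1 was lower, at a threshold of 0.05 on the adjusted p (edgeR's quasi-likelihood test, Benjamini-Hochberg over 13255 tested genes). Over all tested genes 17.9% were called, 8.51% higher and 9.43% lower. The members were chosen with earlier results of these data known, so the counts beside these shares are descriptions only. Ciita, H2-Eb1, H2-Aa and Cd74 were each called higher by at least 3-fold, which held for 0.792% of tested genes. H2-Ab1, the most abundant of the set, went the other way and fell 1.5-fold. The median log2 fold change (sorafenib minus control) was 0.88 over the 10 genes and -0.01 over all tested genes. All 10 passed the filter on low counts, although Ciita had only 8 to 16 counts per control library. The libraries of the groups did not overlap for 9 of the 10 genes (8 above and 1 below with sorafenib), against 36.3% of all tested genes (18.3% above and 18% below). The libraries held 36981476 to 38126521 counts, and 3 counts, taken as the floor for a count of 0, were 0.0787 to 0.0811 CPM; floors of this kind cover counting error only. Control replicate 2 had a TMM scaling factor of 0.922, against 0.993 to 1.03 in the other 5 libraries. Without it the calls over all genes went from 2378 to 4325, and among the 10 genes 8 were called higher and 1 lower.

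**Figure D1:**
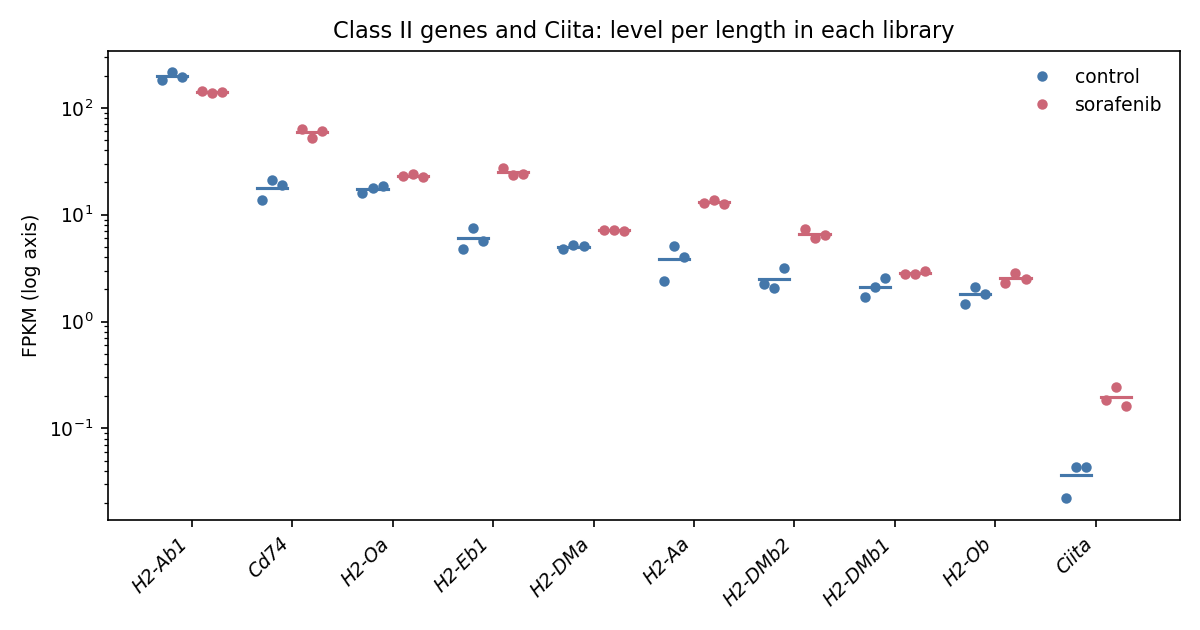
FPKM (fragments per kilobase and per fixed library total, log axis) of the 10 genes in each of the 3 control and 3 sorafenib libraries; points are libraries and bars are group means. H2-Ab1 stands above all others in both groups and is lower with sorafenib, while Cd74, H2-Eb1, H2-Aa, H2-DMb2 and Ciita lie higher with sorafenib.

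Ciita, the transactivator of the pathway, was at 0.214, 0.465 and 0.426 CPM in control replicates 1 to 3 and at 1.78, 2.32 and 1.56 CPM in sorafenib replicates 1 to 3 (CPM are counts per fixed library total, TMM-scaled here). These stand for 8, 16 and 16 counts against 69, 89 and 61 counts, so every sorafenib library was above every control library at a low level. The rise was 5.1-fold (log2 fold change 2.35 ± 0.36 SE, adjusted p = 0.00152 by edgeR), the 30th largest of the 1128 rises. Per length Ciita was the lowest of the 10 genes in both groups, at 0.0364 ± 0.0124 FPKM (SD, n = 3) in control and 0.198 ± 0.0422 FPKM with sorafenib. Ciita overlaps Dexi, with which it shared most of the 1.46% of its 50-base transcript stretches found in other genes.

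Among the chains that present peptide, H2-Eb1, the I-E β chain, was at 7.91, 13.6 and 9.62 CPM in the control libraries. With sorafenib it was at 45, 37.8 and 39.1 CPM. No library of one group came near the other, and the rise was 3.92-fold (log2 fold change 1.97 ± 0.17 SE, adjusted p = 4.54e-05 by edgeR). H2-Aa, the I-A α chain, was at 2.68, 6.18 and 4.61 CPM in control and at 14.3, 15.1 and 13.9 CPM with sorafenib. Control replicate 1 was the lowest library for both genes and control replicate 2 the highest control library. H2-Aa rose 3.22-fold (log2 fold change 1.69 ± 0.23 SE, adjusted p = 0.000746).

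H2-Ab1, the I-A β chain and partner of H2-Aa, was at 217, 279 and 235 CPM in the control libraries. With sorafenib it was at 168, 158 and 163 CPM, below every control library. The fall was 1.5-fold (log2 fold change -0.58 ± 0.09 SE, adjusted p = 0.00171), the 545th largest of 1250 falls, and it was called under every alternative tried, scaling by total counts included. No 50-base stretch of the annotated H2-Ab1, H2-Eb1 or Cd74 transcripts (GENCODE vM21) occurred in a transcript of another gene, so shared exonic sequence of that length was not found for them. H2-Eb2 had 1, 7 and 3 counts in control and 17, 25 and 8 counts with sorafenib, too few to be tested. The symbol H2-Ea, the partner of H2-Eb1, was not found among the deposited genes, so it could not be analysed.

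Cd74, the invariant chain, was at 19.1, 32.3 and 27 CPM in control and at 87.4, 71.5 and 84.1 CPM with sorafenib. Its lowest sorafenib library was above the highest control library, and it rose 3.1-fold (log2 fold change 1.63 ± 0.16 SE, adjusted p = 0.000133).

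Of the H2-DM chains, the α chain H2-DMa was at 39.1, 46.8 and 42.6 CPM in control and at 58, 58 and 57 CPM with sorafenib. All 3 sorafenib libraries were above the control libraries, and the rise was smaller, 1.35-fold (log2 fold change 0.43 ± 0.08 SE, adjusted p = 0.00451). The β chain gene H2-DMb2 was at 3.14, 3.17 and 4.5 CPM in control and at 10.1, 8.29 and 8.78 CPM with sorafenib, a 2.51-fold rise (log2 fold change 1.33 ± 0.17 SE, adjusted p = 0.000506). Its neighbour H2-DMb1, the other gene for a DM β chain, was at 2.17, 2.96 and 3.28 CPM in control and at 3.5, 3.5 and 3.68 CPM with sorafenib. The groups of H2-DMb1 did not overlap, but the difference did not pass (log2 fold change 0.34 ± 0.19 SE, adjusted p = 0.263). Of 50-base stretches of their transcripts, 22.7% for H2-DMb1 and 25.9% for H2-DMb2 also occurred in another gene, mostly in each other, and how shared reads were counted is not given, so their separate values are uncertain. H2-DMa overlaps Brd2 and shared 8.43% of such stretches, mostly with it.

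The chains of H2-O, which inhibits H2-DM, were measured next. H2-Oa, the α chain, was at 19.4, 23.7 and 22.7 CPM in control and at 27.7, 28.3 and 26.9 CPM with sorafenib, without overlap. It rose 1.26-fold (log2 fold change 0.33 ± 0.09 SE, adjusted p = 0.0317) but did not pass without control replicate 1 or 3 or any 1 sorafenib library (adjusted p up to 0.111). H2-Oa shared 15.5% of its 50-base stretches, mostly with the overlapping long noncoding gene BC051537. H2-Ob, the β chain, was at 4.4, 6.88 and 5.54 CPM in control and at 6.75, 8.37 and 7.38 CPM with sorafenib. Its groups overlapped and it did not pass (log2 fold change 0.42 ± 0.17 SE, adjusted p = 0.126), though it was called higher without control replicate 2 (adjusted p = 0.00694). H2-Oa and H2-Ob, both with the GCAAC and ATTGG pair shown above, thus had log2 fold changes of 0.33 and 0.42. H2-Aa and H2-Eb1, also with the pair, had 1.69 and 1.97. Of the members whose promoter entries lacked the pair, H2-DMb2 had 1.33, H2-DMa 0.43 and H2-DMb1 0.34. A relation between the pair and the changes was not tested.

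**Figure D2:**
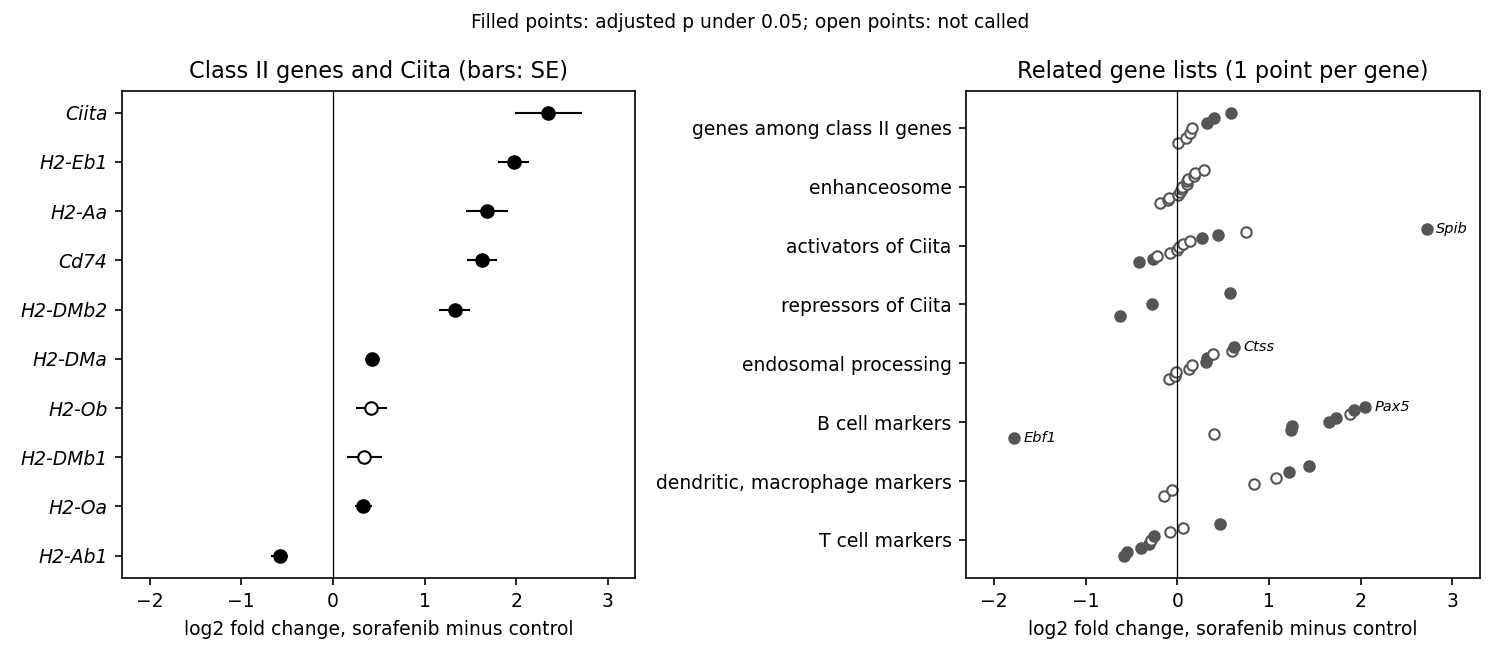
Log2 fold changes (sorafenib minus control) of the 10 genes with SE bars (left) and of the tested genes of 8 related lists, 1 point per gene (right); filled points passed an adjusted p under 0.05. Ciita, H2-Eb1, H2-Aa, Cd74 and H2-DMb2 lie above 1, H2-Ab1 lies below 0, and no gene of the enhanceosome list is filled.

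Levels of different genes are compared here per length, in FPKM. In control cells H2-Ab1 was at 198 ± 16.5 FPKM (SD, n = 3), followed by Cd74 at 17.9 ± 3.82 and H2-Oa at 17.4 ± 1.25, whose libraries overlapped. H2-Eb1 (6.01 ± 1.39), H2-DMa (4.99 ± 0.232) and H2-Aa (3.83 ± 1.34) followed, each overlapping the next. H2-DMb2 (2.49 ± 0.591), H2-DMb1 (2.12 ± 0.413) and H2-Ob (1.79 ± 0.315) came next, each overlapping the gene before it, and Ciita lay below H2-Ob without overlap. With sorafenib the order at the top was H2-Ab1 at 140 ± 3.2 FPKM and Cd74 at 58.7 ± 5.8, without overlap. H2-Eb1 (25 ± 2.21) and H2-Oa (23.2 ± 0.657) overlapped, and H2-Aa (13.1 ± 0.609) lay below both. H2-DMa (7.11 ± 0.0792) and H2-DMb2 (6.59 ± 0.647) overlapped, as did H2-DMb1 (2.84 ± 0.0851) and H2-Ob (2.54 ± 0.293). The level of H2-DMa rests on the length of 8325 bases that the deposited FPKM imply, against 3448 bases of annotated exons in GENCODE vM21, so its place in this order is uncertain. For H2-Aa the implied length was 1128 bases against 3798, and for H2-Ab1 1193 against 2568.

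Ratios between members were taken within each library, where no scaling factor enters. H2-Aa had 1.24%, 2.21% and 1.96% of the counts of its partner H2-Ab1 in the control libraries and 8.53%, 9.53% and 8.52% with sorafenib. Per length, H2-Ab1 was thus 76.4, 42.7 and 48.3 times as high as H2-Aa in control and 11.1, 9.92 and 11.1 times as high with sorafenib. These values rest on the implied lengths of 1128 and 1193 bases. With the annotated exon lengths of GENCODE vM21 they would be 119, 66.8 and 75.5 in control and 17.3, 15.5 and 17.4 with sorafenib. The transcripts of the I-A pair were unequal in every library, and less so with sorafenib. H2-Eb1 had 4.21 ± 0.62% (SD, n = 3) of the H2-Ab1 counts in control and 24.9 ± 1.67% with sorafenib. Cd74 had 10.6 ± 1.56% and 49.7 ± 3.9%. H2-Ab1 made up 66.2% to 68.8% of the summed counts of the 10 genes in control and 39.7% to 40.4% with sorafenib.

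The H2-DMb1 counts were 69.2%, 93.6% and 72.8% of the H2-DMb2 counts in control and 34.6%, 42.1% and 41.9% with sorafenib. Again the groups did not overlap. The ratios given so far were chosen with earlier results of these data known. H2-Aa, H2-Eb1 and Cd74 were called higher and H2-Ab1 lower, so the direction of their ratios follows from those calls. A further pair of ratios was chosen after the values were seen. H2-Eb1 had 295%, 220% and 209% of the H2-Aa counts in control and 315%, 251% and 282% with sorafenib, and these groups overlapped. H2-Oa had 399 ± 50% of the H2-Ob counts in control and 371 ± 36.8% with sorafenib, also overlapping. The ratios are given as descriptions, with no test.

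**Figure D3:**
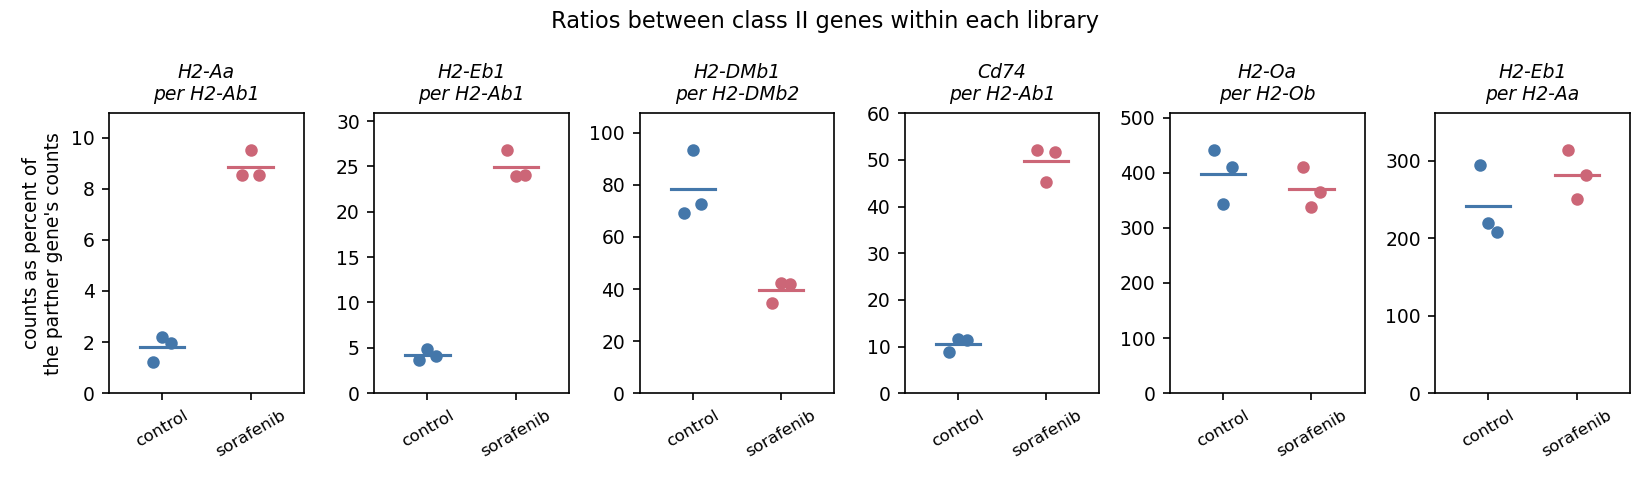
Counts of one class II gene as a percent of the counts of another in the same library (axes start at 0); points are the 3 control and 3 sorafenib libraries and bars are means. The groups separate for H2-Aa, H2-Eb1 and Cd74 against H2-Ab1 and for H2-DMb1 against H2-DMb2, and overlap for H2-Oa against H2-Ob and H2-Eb1 against H2-Aa.

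Genes that lie among the class II genes on chromosome 17 or next to them were also counted. Of 7 tested, 3 were higher and 0 lower, with a median log2 fold change of 0.17. For this list and those below, the shares over all tested genes were 8.51% higher and 9.43% lower. Psmb9, an immunoproteasome subunit, rose 1.51-fold, from 38.2 ± 5.9 to 57.6 ± 2.73 CPM. The peptide transporter genes Tap1 and Tap2, which serve class I loading, rose 1.32-fold and 1.25-fold, and the Tap2 call was lost without control replicate 3 or any 1 sorafenib library (adjusted p up to 0.072).

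The factors that bind the X and Y boxes or work beside Ciita, such as the RFX and NF-Y subunits, were measured in full. By edgeR 0 of 13 were called, 3 had an unadjusted p under 0.05, and the median log2 fold change was 0.06. DESeq2 and edgeR on total counts only each called 1 of them higher and limma-voom 0, and without control replicate 2 there were 1 higher and 2 lower. Rfx5, the subunit of RFX with the smallest p, was at 24.7 ± 2.15 CPM in control and 30.2 ± 2.41 CPM with sorafenib (adjusted p = 0.0625).

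Of 12 genes known to activate Ciita, 3 were higher and 2 lower (1 lower with total counts only), with a median log2 fold change of 0.04. Spib, an ETS factor of B cells and plasmacytoid dendritic cells, had 14, 11 and 15 counts in control and 88, 80 and 115 counts with sorafenib, a 6.6-fold rise (adjusted p = 0.000184). Irf8 fell 1.33-fold, from 406 ± 35.3 to 304 ± 9.33 CPM. Of 3 genes known to restrain Ciita or interferon signalling, 1 was higher and 2 were lower. Prdm1, which encodes the repressor Blimp-1, fell 1.54-fold, from 5.8 ± 0.484 to 3.76 ± 0.666 CPM (adjusted p = 0.0263). Socs1, an inhibitor of JAK kinases, fell 1.21-fold (adjusted p = 0.0252), and Zbtb32, a BTB zinc finger repressor, rose 1.49-fold (adjusted p = 0.00585). The Prdm1 call was lost in 7 of 17 alternatives and the Socs1 call in 10 of 17, among them total counts only for Socs1 and the FPKM fits for both (adjusted p up to 0.169 and 0.244).

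Of 10 endosomal proteases and reductases that process antigen or Cd74, 3 were higher and 0 lower, with a median log2 fold change of 0.24. The number higher went from 1 without sorafenib replicate 1 or 3 to 6 without control replicate 2. Ctss, the cathepsin that trims Cd74 in class II cells, was at 26.5 ± 4.87 CPM in control and 40.7 ± 2.2 CPM with sorafenib, a 1.54-fold rise (log2 fold change 0.62, adjusted p = 0.0054). Ctsd, an aspartic protease, rose 1.25-fold (adjusted p = 0.0165), and Ifi30, the lysosomal thiol reductase GILT, rose 1.25-fold (adjusted p = 0.0449). The Ctsd call was lost without sorafenib replicate 1 or 3 (adjusted p up to 0.0939), and the Ifi30 call with the replicate block and without any 1 library other than control replicate 2 (adjusted p up to 0.163).

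Markers of other cells that carry class II were counted beside these genes. In bulk RNA, fewer cells of a type and less RNA per cell cannot be told apart. Of 11 B cell markers in the table, 9 were tested, 6 were higher and 1 lower. Pax5, the B cell commitment factor, had 20, 43 and 23 counts in control and 126, 131 and 127 counts with sorafenib, a 4.14-fold rise (adjusted p = 0.00132). Cd22, an inhibitory B cell receptor, rose 3.31-fold from 1.01 ± 0.239 CPM, and Cd79a, a chain of the B cell receptor, rose 2.38-fold from 2.13 ± 1.19 CPM. The Cd79a call was lost without any 1 library other than control replicate 2. It was also lost on log2(FPKM + 1) without a filter (adjusted p up to 0.105 over all alternatives). Ms4a1, the gene of CD20, had 0, 1 and 0 counts in control and 1, 2 and 2 counts with sorafenib. Ebf1, an early B cell factor, fell 3.43-fold, from 19.6 ± 0.946 to 5.72 ± 0.897 CPM. The summed level of the list was 33.2 to 41.9 CPM in control and 45 to 47.4 CPM with sorafenib, and without Ebf1, which was set aside after its values were seen, 13.5 to 23.2 and 38.3 to 41.8 CPM. Control replicate 1 was the lowest library for that sum. It was also the lowest for every class II member but H2-Ab1, H2-DMa, H2-DMb1, H2-Oa and H2-Ob included. The same held for the summed dendritic cell and macrophage markers below, and the cause of this low value was not tested.

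Of 13 dendritic cell and macrophage markers in the table, 6 passed the filter, 2 were higher and 0 lower. Flt3, a receptor of dendritic cell progenitors, had 65, 92 and 88 counts in control and 183, 184 and 245 counts with sorafenib, a 2.33-fold rise (adjusted p = 0.00245). Zbtb46, a factor of classical dendritic cells, rose 2.7-fold from 1.23 ± 0.554 CPM (adjusted p = 0.0157). That call was lost without sorafenib replicate 1 or 3 and on log2(FPKM + 1) without a filter (adjusted p up to 0.086 over all alternatives). Csf1r, the macrophage growth factor receptor, had 0 counts in each control library and 2, 0 and 1 with sorafenib. The macrophage lysozyme gene Lyz2 had 3 to 10 counts in control and 5 to 9 with sorafenib. Itgax, the CD11c gene, was at 0.39 ± 0.197 CPM in control and 0.354 ± 0.288 CPM with sorafenib (adjusted p = 0.913), and Adgre1, the F4/80 gene, was at 0.255 ± 0.0469 and 0.542 ± 0.14 CPM (adjusted p = 0.12). The summed level of this list was 9.6 to 14 CPM in control and 15.8 to 18.1 CPM with sorafenib. The part of B cell, dendritic cell or macrophage RNA in the class II differences was not tested.

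The labelled cell type was checked on T cell markers, which were abundant in every library. Cd4 was at 476 ± 35.9 CPM in control and 496 ± 10.7 CPM with sorafenib (adjusted p = 0.671). Il9, the cytokine that names the cells, rose 1.39-fold, from 192 ± 18.8 to 266 ± 15.4 CPM. Of 9 tested, 5 fell, Cd2 by 1.5-fold and Cd28 by 1.46-fold among them, against 3 with scaling to total counts only. Cd3e, a chain of the T cell receptor complex, fell 1.24-fold (adjusted p = 0.0129), a call lost in 9 of 17 alternatives, total counts only among them (adjusted p up to 0.203). The call for Lck, a T cell kinase named here after its values were seen, was lost in 11 of 17, total counts only included (adjusted p up to 0.195). The summed level of the list without Il9 was 2487 to 2513 CPM in control and 2028 to 2123 CPM with sorafenib.

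**Figure D4:**
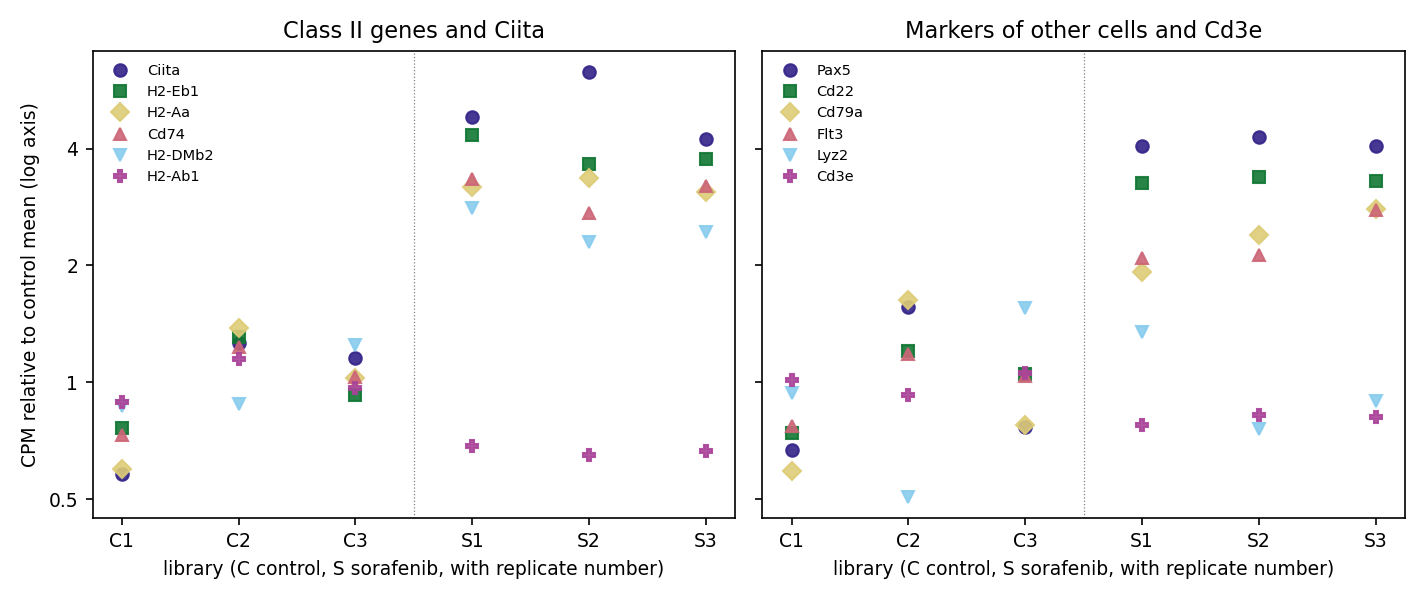
CPM of single genes in each library relative to the mean of the 3 control libraries (log axis), for 6 class II genes (left) and for markers of B cells, dendritic cells, macrophages and T cells (right). Ciita, H2-Eb1, H2-Aa, Cd74 and H2-DMb2 and the markers Pax5, Cd22, Cd79a and Flt3 are higher in all 3 sorafenib libraries than in the control libraries, while H2-Ab1 and Cd3e are lower and Lyz2 overlaps. The markers drawn are a selection. Of those not drawn, the B cell marker Ebf1 fell 3.43-fold, and Itgax and Cd68 overlapped between the groups.

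Other genes were ranked by how closely their centred log2 CPM profile over the 6 libraries followed a member, by Euclidean distance. Among the 3 closest to Ciita were Pax5 (distance 0.75) and Cd22 (0.81), both genes of B cells. The 11422 candidates were limited to a mean log2 CPM of at least 0, so genes of lower level were not ranked. These distances were larger than those of the genes named next for H2-Eb1 and H2-Ab1. For H2-Eb1 and H2-Ab1 the 8762 candidates had a mean log2 CPM of at least 3. Closest to H2-Eb1 were Serpina3g (0.34), a serine protease inhibitor gene, Tmem176a (0.58) and Aqp9 (0.70), an aquaglyceroporin gene. Closest to H2-Ab1 were Gpr171 (0.07), a G protein-coupled receptor gene, P4hb (0.09), which encodes protein disulfide isomerase, and Borcs6 (0.10), a subunit of a lysosome positioning complex. Gpr171 was at 87.3 ± 10.8 CPM in control and 57 ± 0.083 CPM with sorafenib, and P4hb at 1466 ± 152 and 1012 ± 27.6 CPM. The distances are descriptions over 6 libraries, with no test.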

How the data were processed

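Whole-number counts per gene and FPKM values were deposited by the authors for the 6 libraries. The labels' protocols name TRIzol extraction of total RNA and a VAHTS Universal V5 library kit. The tools listed, per the submitters' processing notes, are HTSeq, HISAT2, fastp, DESeq2 and R 3.2.0, with build GRCm39; neither the strand setting nor the handling of multiply mapped reads is stated there. Gene lengths are those implied by the deposited counts and FPKM.

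Counts were filtered with filterByExpr, scaled with TMM and tested with edgeR 4.0.16 in R 4.3.3 (quasi-likelihood, robust, group only, 4 residual degrees of freedom), with Benjamini-Hochberg adjustment over 13255 genes. SE was derived from the F statistic. CPM are given as mean ± SD over 3 libraries. The test was checked on simulated data. Alternatives were other scalings, filters, tests (DESeq2 1.42.0, limma 3.58.1), FPKM fits, a replicate block and each library left out. Members, lists and ratios were chosen with earlier results of these data known. Named were all members, up to 3 called genes per list (else that with the smallest p), fixed cell markers and the 3 nearest profiles. RefSeq promoters and GENCODE vM21 transcripts are of GRCm38, so gene coordinates are not given. A few genes chosen this way are left out here.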

Additional observations from a re-analysis of the deposited data

How the results depend on the processing

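Over 168 alternative results for the 10 genes, 161 kept the direction and the side of the threshold, and 0 reversed. They include the main fit read at an adjusted p under 0.01, which is not a refit. The H2-Oa call was lost in 6, that stricter threshold among them, and H2-Ob gained a call in 1. The log2 fold change of Ciita fell to 0.21 on log2(FPKM + 1), where a pseudocount of 1 exceeds its level. The FPKM filter of 0.5 left Ciita untested. Leaving out 1 library gave 6 to 8 members higher and 1 lower, and 1243 to 4325 calls over all genes (559 to 2035 higher, 684 to 2290 lower). An adjusted p under 0.01 called 1227 genes (551 higher, 676 lower). Total counts only called 1496 higher and 826 lower, against 1128 and 1250, and moved the median of all genes from -0.01 to 0.07. On log2(FPKM + 1) without a filter 1423 were called (520 lower), and with a filter of 0.5 on mean FPKM 744 were lower, or 737 with a pseudocount of 0.1; the cause was not tested. Deviations of same-numbered libraries from their group means had correlations of -0.063, 0.152 and 0.102 over 13255 genes. Differently numbered libraries had -0.178 to 0.098. These ranges overlapped and no label pairs the libraries, so the numbers were not taken to pair the samples. With a replicate block 2139 genes were called (1031 higher, 1108 lower), 7 members higher and 1 lower. Within a library a ratio of FPKM is the ratio of counts times a fixed ratio of lengths, so the FPKM alternative could not change how ratios differed between groups. Depth limits genes of few counts, Ciita, H2-Eb2, Ms4a1 and Csf1r among them.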

Other observations

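Genes that act at the surface around class II were read from the same fit. The ligand of CD74, Mif, and the related Ddt belong to a list of 7 genes for class II receptors and the CD74 signalling complex, of which 1 was higher and 2 were lower. Cd44, which signals with CD74, rose 1.26-fold, from 185 ± 15.3 to 234 ± 17.8 CPM (adjusted p = 0.0187 by edgeR's quasi-likelihood test), a call lost without control replicate 1 or 3 or sorafenib replicate 1 or 3 (adjusted p up to 0.106). The chemokine receptors that can join CD74 fell: Cxcr4 by 1.62-fold, from 324 ± 25.6 to 200 ± 9.1 CPM (adjusted p = 0.000237), and Cxcr2 by 2.61-fold, from 6.39 ± 1.03 to 2.45 ± 0.269 CPM (adjusted p = 0.000468).

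Of 6 costimulatory ligand genes, 2 were higher and 0 lower, with a median log2 fold change of 0.28, and 4 were higher with total counts only. DESeq2 called 3 higher and 1 lower. Also, 1 was called lower without a filter, without control replicate 2 and without sorafenib replicate 2. Icosl was lower without overlap but did not pass (log2 fold change -1.25, adjusted p = 0.0614 by edgeR). Cd40, known from B cells and dendritic cells, had 68, 92 and 79 counts in control and 257, 174 and 199 counts with sorafenib, a 2.46-fold rise (adjusted p = 0.00189). Pdcd1lg2, the gene of the PD-1 ligand PD-L2, rose 1.63-fold, from 10.7 ± 0.512 to 17.4 ± 2.72 CPM (adjusted p = 0.00342). Of 3 tested genes of class II surface turnover 0 were called by edgeR, DESeq2 or limma-voom, with 2 at an unadjusted p under 0.05; without control replicate 2, or with total counts only, 1 was called higher. Marchf1, the ubiquitin ligase that removes class II from the surface, had 6, 9 and 4 counts in control and 16, 22 and 20 counts with sorafenib (adjusted p = 0.0591).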
